A study of Mus musculus with 12 samples.

Results

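The genes described here are the matrix metalloproteinases (*Mmp*), the tissue inhibitors of metalloproteinases (*Timp*) and the *Adam*, *Adamts* and *Adamtsl* genes, taken from the liver table by their symbols alone. They numbered 84 of the 54532 genes listed, namely 23 *Mmp*, 4 *Timp*, 33 *Adam*, 19 *Adamts* and 5 *Adamtsl* genes. Whole liver was taken from 12 male C57BL/6J mice, 3 in each of 4 groups that had eaten their diet for 26 weeks from 5 weeks of age. The ND-fed mice received a normal diet, the control mice a high-fat diet, and the HYA-treated and LA-treated mice the same high-fat diet with 1% HYA or 1% LA added, so that the fat-rich diet was common to the last 3 groups. HYA is 10-hydroxy-*cis*-12-octadecenoic acid, to which lactic acid bacteria of the gut convert its parent compound, linoleic acid (LA). The comparison of control with ND-fed mice asks what the high-fat diet changed in liver, and those of HYA-treated mice with control and LA-treated mice ask what the supplement and its parent changed on that diet. The groups differ by diet and supplement only as far as the labels state, and no source used here says whether mice shared cages or litters.

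*Mmp* genes encode zinc-dependent proteases that cut collagens, elastin, proteoglycans and other secreted proteins, most of them made as inactive precursors and several of them anchored in the cell membrane. Timp proteins bind the active site of these enzymes, and Timp3, which stays bound to the matrix, also inhibits several Adam and Adamts proteases. Adam proteins are membrane proteins that in part shed growth factors, cytokines and receptors from the cell surface. Adamts proteins are secreted proteases that process procollagen, proteoglycans and von Willebrand factor, and Adamtsl proteins resemble them but lack the protease domain. In liver, stellate cells and the myofibroblasts that arise from them are known as a source of Mmp2, Timp1 and Timp2, and macrophages as a source of Mmp12 and Mmp13.

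Levels are given as FPKM, in which fragments are divided by the length of the gene and the size of the library, so that genes can be compared with each other. The table was 100% whole multiples of 1 fragment in each mouse, and 17169064 to 25220880 fragments per mouse fell on genes. The 11083 genes whose mean over the 12 mice reached 1 FPKM were tested with limma on log2(FPKM + 1), and a gene was called where its p-value, adjusted over them by Benjamini-Hochberg, was under 0.05. Fold changes on that scale are understated for genes of low FPKM. Of the 84 members, 22 were tested, 43 had at least 10 mean fragments, a further 22 had fewer, and 19 were listed at 0 in every mouse, 14 of them *Adam* genes. The 2 members just inside the filter were *Adamtsl4* (1.08 FPKM) and *Adam15* (1.10 FPKM), and the 2 just outside it were *Mmp27* (0.774 FPKM) and *Mmp13* (0.760 FPKM). Members with at least 10 mean fragments that were not tested this way are given from voom, a limma fit to the recovered fragments of 14353 genes. A member that was high in 1 group only could pass the filter through that group. *Timp1* (means of 0.0427 FPKM in ND-fed and 0.996 in HYA-treated mice) and *Mmp12* (0.0533 and 0.983) passed through control and LA-treated mice only. The same held for *Adam15*, whose means in ND-fed and HYA-treated mice were also below 1 FPKM. *Mmp2*, *Adamts2*, *Adam23*, *Adamtsl2* and *Adamtsl4* had means below 1 FPKM in ND-fed mice and passed through the mice on the high-fat diet. Counts are given over all tested members and not over the family, which does not remove this dependence on the filter.

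Mice of 1 group differed by more than counting error (chi-square per degree of freedom 9.71 to 26.5 across genes), and the counting intervals below cover counting error only. The hepatocyte markers *Alb*, *Ttr*, *Apoa1*, *Cps1*, *Tat* and *Cyp2e1* summed to between 27699 and 43566 FPKM in a mouse, and the pancreatic genes *Cpa1* and *Pnlip* were listed at 0 throughout. No library was left out. In these samples of whole liver, fewer cells of a type and less RNA per cell cannot be told apart.

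A few members made up most of the expression of the family. *Adam9*, a widely expressed sheddase, and *Mmp19*, a secreted protease, were the most abundant, at means of 26.4 and 29.7 FPKM in ND-fed mice, together with the membrane-type proteases *Mmp15* (9.87 FPKM) and *Mmp14* (6.84 FPKM), *Adam10* (7.26 FPKM) and *Adam11* (9.54 FPKM). The summed level of the 23 *Mmp* genes was 50.9 ± 0.847 FPKM (SD, n = 3) in ND-fed mice and 53.1 ± 2.68 in control mice, with overlapping ranges, and *Mmp19* alone made up 58.2% of it in the former and 39.8% in the latter. The summed *Timp* level, in contrast, was 6.97 ± 0.361 FPKM in ND-fed and 16.6 ± 2.93 FPKM in control mice, so that the *Timp* sum per *Mmp* sum was 0.137 ± 0.00806 and 0.311 ± 0.0418, respectively, and the ranges of 0.128 to 0.144 and 0.280 to 0.358 did not overlap. In HYA-treated mice the ratio was 0.253 ± 0.00871 (0.247 to 0.263) and in LA-treated mice 0.276 ± 0.0236 (0.261 to 0.303). The *Mmp* genes other than *Mmp19*, *Mmp15*, *Mmp14* and *Mmp11* summed to 2.30 ± 0.636 FPKM with ND, 8.80 ± 1.66 in control mice, 5.10 ± 0.600 with HYA and 8.70 ± 0.793 with LA. From ND-fed to control mice this smaller *Mmp* sum rose by a larger factor than the *Timp* sum. The direction of the *Timp* to *Mmp* ratio thus depends on which *Mmp* genes are summed. These sums are descriptions without a test.

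**Figure D1:**
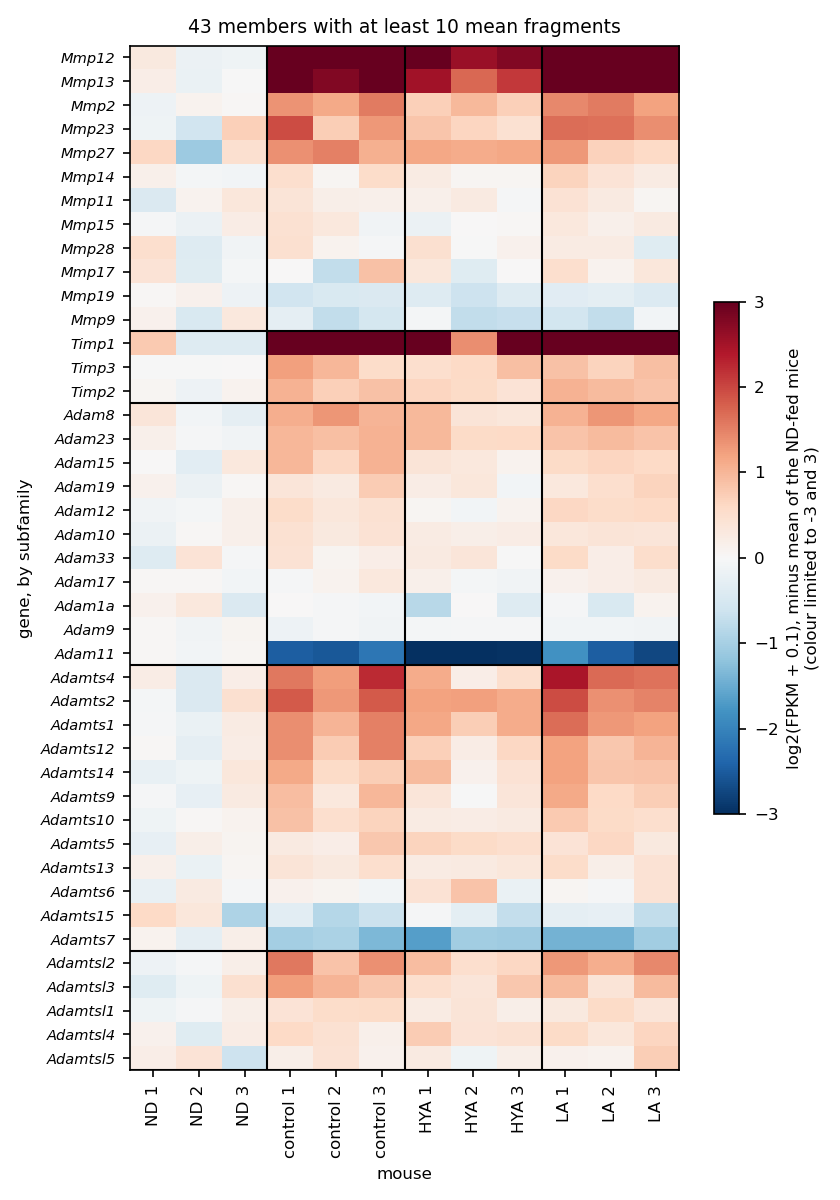
Level of the 43 members with at least 10 mean fragments in each of the 12 mice, as log2(FPKM + 0.1) minus the mean of the ND-fed mice, colour limited to −3 and 3. Rows are grouped by subfamily (Mmp, Timp, Adam, Adamts, Adamtsl, separated by lines) and ordered within it by the mean of control mice; Timp1, Mmp12 and Mmp13 stand at the red end in control and LA-treated mice, Adam11 is blue in all mice on the high-fat diet, and Adam9, Adam17 and Mmp15 are pale throughout.

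On chromosome 9, 10 of the *Mmp* genes lie side by side (7272514 to 7699585, GRCm38), among them the 2 that differed most between ND-fed and control mice, *Mmp13* and *Mmp12*. The letters TGACTCA, which are those bound by AP-1 (Fos and Jun) and read TGAGTCA on the other strand, were searched on both strands in windows from 250 bases before to 50 after the start of each gene (RefSeq, GRCm38.p6, 54 of the 84 members matched). They were found in 7 of the 10 genes of the cluster (70%), in 3 of the 44 other members (6.82%) and in 1607 of 27025 genes (5.95%). The search was chosen with the levels of these genes known. The 100 bases before the start of 4 cluster genes are shown because the same letters stand at similar distances from the start in genes with very different levels in liver, with the match in capitals:

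*Mmp13* (chr9:7272414-7272513, plus strand): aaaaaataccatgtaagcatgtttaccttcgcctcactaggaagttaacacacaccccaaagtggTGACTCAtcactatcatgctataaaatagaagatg
*Mmp12* (chr9:7347274-7347373, plus strand, 1 of 2 annotated starts): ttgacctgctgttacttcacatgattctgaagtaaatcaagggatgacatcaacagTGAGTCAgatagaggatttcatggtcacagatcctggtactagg
*Mmp7* (chr9:7691990-7692089, plus strand, 1 of 2 annotated starts): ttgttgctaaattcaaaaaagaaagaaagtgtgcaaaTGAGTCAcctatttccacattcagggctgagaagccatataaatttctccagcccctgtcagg
*Mmp1a* (chr9:7464041-7464140, plus strand): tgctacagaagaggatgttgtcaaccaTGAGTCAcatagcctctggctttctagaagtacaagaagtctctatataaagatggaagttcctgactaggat

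*Mmp13* and *Mmp12* rose in control mice, *Mmp7* had a mean of 9.25 fragments per mouse, and *Mmp1a* was listed at 0 in all 12 mice. The cluster thus held members with a match on both sides of the detection limit, and a match describes the letters only.

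Control mice differed from ND-fed mice in most of the tested members. Of the 22, 13 were higher and 3 lower (limma, two-sided, adjusted p under 0.05), or 72.7% called, whereas 35.3% of all 11083 tested genes were called, 16.2% of them higher and 19.1% lower. The median log2 fold change of the members was 0.42 and that of all genes −0.04. Among the higher members, *Timp1*, *Mmp2*, *Mmp12*, *Adam15*, *Adam23*, *Adamts2* and *Adamtsl2* passed the filter through mice on the high-fat diet. The share called higher was thus partly set by the filter. *Timp1*, *Timp2* and *Timp3* were higher, as were *Adamts2*, the single tested gene of 3 that process procollagen, and *Adamts1*, the single tested gene of 7 that cut proteoglycans, and *Adam11*, *Adamts7* and *Mmp19* were lower. An absolute log2 fold change above 1 was reached by 4 members, *Timp1*, *Mmp12*, *Adamts1* and *Adam11*, against 3.88% of all genes. Rescaling to TPM, which moved the median of all genes from −0.04 to 0.18, gave 24 members higher and 2 lower among 29 tested (4417 higher and 775 lower among 13588 genes).

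All 3 tested *Timp* genes rose in control mice. *Timp1* (X chromosome, 20870166 to 20874735), which encodes a secreted inhibitor of most Mmp enzymes, was at 0.128, 0 and 0 FPKM with ND, 4.45, 2.06 and 3.32 in control mice, 1.51, 0.248 and 1.23 with HYA and 1.69, 1.95 and 3.33 with LA. All control and LA-treated mice lay above all HYA-treated mice, and 2 of the 3 ND-fed mice had no fragment. With 2 fragments in ND-fed and 185 in control mice, the ratio of the pooled levels was 74.8 (95% counting interval 20.4 to 622), and the log2 fold change was 2.0 (SE 0.28, adjusted p = 0.000358, limma). *Timp2* (chromosome 11, 118301069 to 118355740), which also takes part in the activation of pro-Mmp2, was at 3.59, 3.10 and 3.70 FPKM with ND, 7.27, 5.77 and 6.48 in control mice, 5.44, 5.17 and 4.61 with HYA and 7.27, 6.80 and 6.38 with LA. It rose 1.88-fold in control mice (log2 fold change 0.75, SE 0.09, adjusted p = 0.00012), with HYA-treated mice between the 2 groups and apart from both. *Timp3* (chromosome 10, 86300372 to 86349506) was at 3.45, 3.45 and 3.48 FPKM in ND-fed and 8.22, 7.02 and 5.13 in control mice, a 1.96-fold difference (log2 fold change 0.78, SE 0.13, adjusted p = 0.00125). In HYA-treated mice it was at 4.97, 5.26 and 6.53 and in LA-treated mice at 6.43, 5.54 and 6.54 FPKM, ranges that overlapped that of control mice. *Timp4* had a fragment in 1 control and 1 LA-treated mouse only and stood below the limit of detection. *Timp2* and *Timp3* were thus similar in level in every group, and *Timp1* made up 0.613% of the *Timp* sum in ND-fed and 19.8% in control mice.

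**Figure D2:**
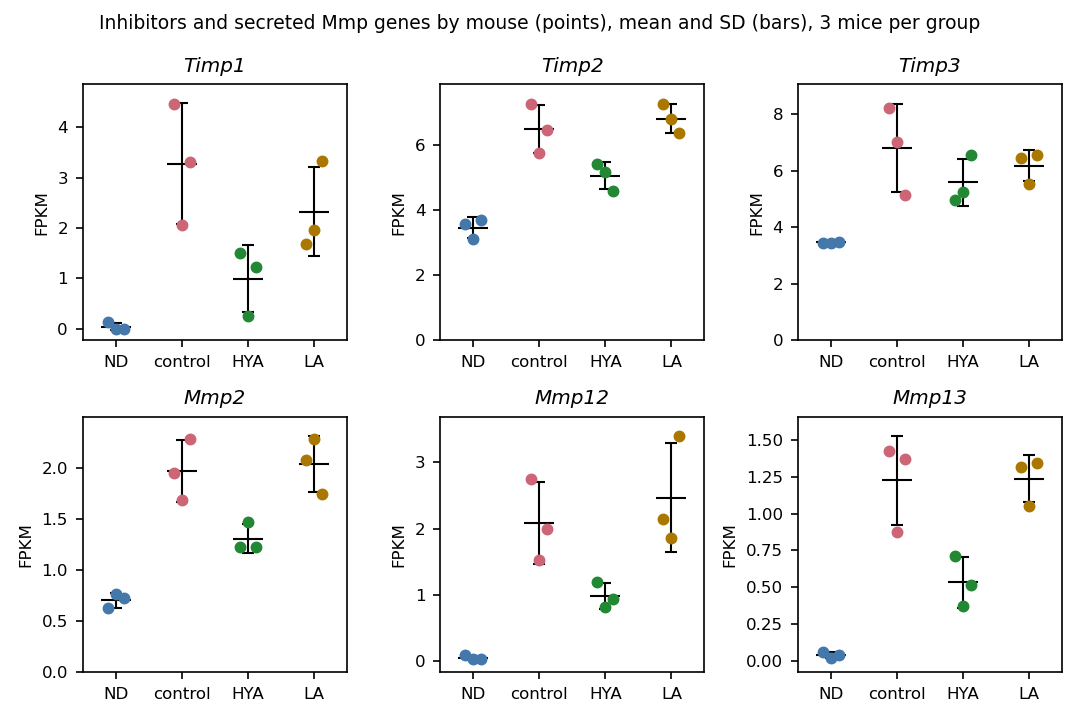
FPKM of Timp1, Timp2, Timp3, Mmp2, Mmp12 and Mmp13 in each mouse (points) with the group mean and SD (black bars), 3 mice per group on linear axes. For Timp1, Timp2, Mmp2, Mmp12 and Mmp13 the 3 HYA-treated mice lie below all control mice and above all ND-fed mice, whereas for Timp3 they overlap control mice.

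Among the secreted *Mmp* genes, the gelatinase *Mmp2*, the metalloelastase *Mmp12* and the collagenase *Mmp13* rose in control mice. *Mmp2* (chromosome 8, 92827291 to 92853420), whose product cuts denatured and basement membrane collagen, was at 0.625, 0.766 and 0.726 FPKM with ND, 1.95, 1.68 and 2.28 in control mice, 1.22, 1.47 and 1.22 with HYA and 2.07, 2.28 and 1.74 with LA. It rose 2.79-fold in control mice (log2 fold change 0.79, SE 0.09, adjusted p = 0.000126, limma). *Mmp12* (chromosome 9, 7344381 to 7369499), an elastase of macrophages, was at 0.0865, 0.0348 and 0.0384 FPKM with ND, 2.74, 1.52 and 2.0 in control mice, 1.19, 0.816 and 0.945 with HYA and 2.14, 1.85 and 3.40 with LA. Its 4 groups formed 3 levels, with control and LA-treated mice interleaved at the top, and 20 fragments in ND-fed against 962 in control mice gave a ratio of 38.9 (95% counting interval 25 to 64.0; log2 fold change 1.53, SE 0.17, adjusted p = 8.46e-05). *Mmp13* (chromosome 9, 7272514 to 7283331), the main interstitial collagenase of rodents, was at 0.0639, 0.0236 and 0.0416 FPKM with ND, 1.43, 0.876 and 1.37 in control mice, 0.714, 0.371 and 0.515 with HYA and 1.32, 1.05 and 1.34 with LA. With 6 fragments in ND-fed and 208 in control mice the ratio was 28.0 (12.7 to 77.3), and voom called it (adjusted p = 6.15e-05). The other collagenases were at the limit of detection, with *Mmp1a* and *Mmp1b* listed at 0 and *Mmp8* at no more than 0.116 FPKM in any mouse.

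*Mmp9*, the second gelatinase, which neutrophils store, did not follow *Mmp2*. It was at 0.402, 0.231 and 0.472 FPKM with ND, 0.276, 0.172 and 0.218 in control mice, 0.335, 0.171 and 0.183 with HYA and 0.212, 0.172 and 0.330 with LA, with all groups overlapping (voom, control against ND, log2 fold change −0.70, 95% interval −1.52 to 0.11, adjusted p = 0.171). The stromelysin *Mmp11* stood at 2.25 ± 0.610 FPKM in ND-fed and 2.63 ± 0.246 in control mice (adjusted p = 0.335, limma), and it shares 155 exon bases with *Chchd10* on the opposite strand, at a mean of 219 FPKM.

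The abundant *Mmp* genes moved little or fell. *Mmp19* (chromosome 10, 128790910 to 128800824) was at 30.3, 32.1 and 26.6 FPKM with ND, 19.9, 21.5 and 22 in control mice, 22.7, 19.0 and 22.6 with HYA and 23.3, 24.3 and 22.1 with LA. All ND-fed mice lay above the 9 others, and the gene was 1.40-fold lower in control mice (log2 fold change −0.47, SE 0.09, adjusted p = 0.00185, limma), a call lost with TPM (adjusted p = 0.0573). It shares 789 exon bases with *Tmem198b*, at a mean of 1.70 FPKM. *Mmp14*, which anchors in the membrane and activates pro-Mmp2, was at 7.60, 6.51 and 6.41 FPKM with ND, 9.64, 7.06 and 10.1 in control mice, 8.16, 7.15 and 7.09 with HYA and 10.9, 9.14 and 8.06 with LA. The control mouse at 7.06 lay within the range of ND-fed mice, and the gene did not pass the test (log2 fold change 0.33, SE 0.13, adjusted p = 0.0734), whereas without that mouse, control replicate 2, it did (0.47, adjusted p = 0.0114). It was also called with TPM (0.58, adjusted p = 0.0131) and with a replicate block (adjusted p = 0.0392). *Mmp15* was at 9.87 ± 1.39 FPKM in ND-fed and 11.6 ± 2.26 FPKM in control mice, with overlapping ranges (log2 fold change 0.21, 95% interval −0.08 to 0.49, adjusted p = 0.246).

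Of the 6 tested *Adam* genes, *Adam10*, *Adam15* and *Adam23* rose and *Adam11* fell in control mice. *Adam11* (chromosome 11, 102761439 to 102780262), a member without protease activity that is best known from neurons, was at 9.69, 9.0 and 9.92 FPKM with ND, 1.63, 1.56 and 2.03 in control mice, 0.955, 0.885 and 1.14 with HYA and 2.65, 1.64 and 1.35 with LA. It was 5.48-fold lower in control than in ND-fed mice (log2 fold change −1.95, SE 0.14, adjusted p = 5.05e-06, limma) and had the lowest p-value of all tested members in that comparison. The 3 HYA-treated mice lay below every other mouse, farther from ND-fed mice than were control mice, so that its order was not that of *Timp1* or *Mmp12*. No annotated gene overlaps it. *Adam23*, the other tested member of the non-catalytic neural kind, went the opposite way, from 0.741, 0.640 and 0.600 FPKM in ND-fed to 1.41, 1.31 and 1.47 in control mice (log2 fold change 0.53, SE 0.08, adjusted p = 0.00049), with 1.16 ± 0.203 FPKM with HYA and 1.30 ± 0.0603 FPKM with LA.

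The sheddases changed by less. *Adam10*, which releases the ectodomains of Notch and of many adhesion molecules, was at 6.42, 7.38 and 7.98 FPKM with ND, 9.93, 8.89 and 9.81 in control mice, 8.53, 8.21 and 8.44 with HYA and 9.17, 9.49 and 9.27 with LA (control against ND, log2 fold change 0.36, SE 0.07, adjusted p = 0.00285, limma). *Adam17*, the enzyme that releases tumour necrosis factor, was at 3.60, 3.59 and 3.27 FPKM with ND, 3.41, 3.75 and 4.34 in control mice, 3.90, 3.36 and 3.22 with HYA and 3.81, 4.04 and 4.20 with LA, and did not pass the test (0.10, 95% interval −0.08 to 0.28, adjusted p = 0.357), although it did with TPM (0.33, adjusted p = 0.0224). It shares 311 exon bases with *Iah1* on the opposite strand, at a mean of 29.8 FPKM. *Adam9* was nearly level, at 26.4 ± 1.86 FPKM in ND-fed and 24.7 ± 0.960 in control mice (log2 fold change −0.09, 95% interval −0.21 to 0.03, adjusted p = 0.226), and its sign turned with TPM. *Adam15* was at 0.760, 0.584 and 0.969 FPKM in ND-fed and 1.61, 1.23 and 1.66 in control mice (0.50, SE 0.10, adjusted p = 0.0026).

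**Figure D3:**
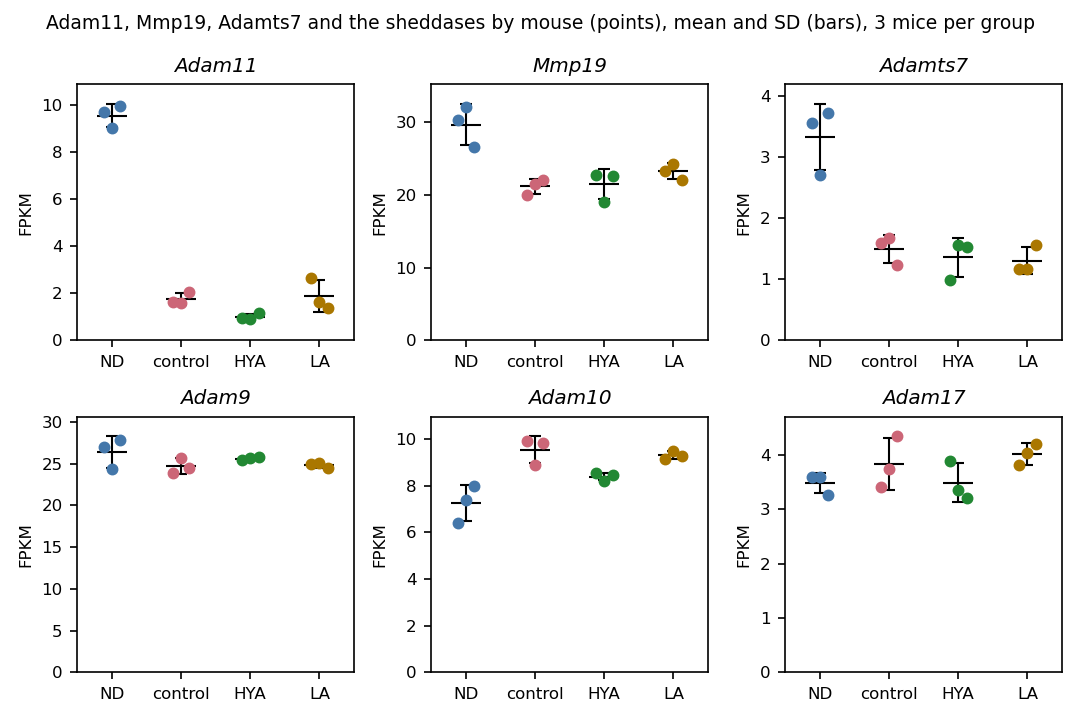
FPKM of Adam11, Mmp19, Adamts7, Adam9, Adam10 and Adam17 in each mouse (points) with the group mean and SD (black bars), 3 mice per group on linear axes that start at 0. Adam11, Mmp19 and Adamts7 are highest in ND-fed mice, Adam9 and Adam17 differ little between the groups, with overlap of control mice with every other group for both, and the Adam10 values of control mice (8.89 to 9.93 FPKM) lie above those of ND-fed mice.

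All 5 tested *Adamts* genes passed the test between control and ND-fed mice, 4 higher and 1 lower. The proteoglycanase *Adamts1* (chromosome 16, 85793827 to 85803113), which cuts versican and aggrecan, was the most abundant in mice on the high-fat diet, at 2.33, 2.09 and 2.86 FPKM with ND, 6.48, 4.97 and 7.06 in control mice, 5.47, 4.06 and 5.33 with HYA and 7.92, 6.07 and 5.69 with LA (2.54-fold, log2 fold change 1.06, SE 0.15, adjusted p = 0.000362, limma). *Adamts2* (chromosome 11, 50602084 to 50807573), which removes the amino-terminal propeptide of fibrillar procollagens, was at 0.457, 0.330 and 0.703 FPKM with ND, 1.98, 1.32 and 1.96 in control mice, 1.24, 1.26 and 1.14 with HYA and 2.15, 1.39 and 1.53 with LA (3.54-fold, 0.88, SE 0.13, adjusted p = 0.000577). All mice on the high-fat diet lay above all ND-fed mice for both genes. *Adamts10*, a protein of fibrillin microfibrils, was at 1.46, 1.65 and 1.72 FPKM with ND, 3.02, 2.33 and 2.59 in control mice, 1.92, 1.90 and 1.94 with HYA and 2.84, 2.45 and 2.31 with LA (0.48, SE 0.08, adjusted p = 0.00124). *Adamts7* (chromosome 9, 90163069 to 90208071), which cuts cartilage oligomeric matrix protein, ran the other way, with 3.55, 2.71 and 3.71 FPKM with ND, 1.58, 1.67 and 1.23 in control mice, 0.985, 1.55 and 1.53 with HYA and 1.17, 1.17 and 1.56 with LA (2.22-fold lower, −0.79, SE 0.13, adjusted p = 0.000913). It shares 122 exon bases with *Tbc1d2b*, at a mean of 4.90 FPKM.

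*Adamts13*, the protease that cuts von Willebrand factor and is made largely by hepatic stellate cells, was at 1.69, 1.29 and 1.56 FPKM with ND, 1.98, 1.87 and 2.17 in control mice, 1.80, 1.83 and 1.92 with HYA and 2.27, 1.71 and 2.07 with LA. The rise in control mice was called narrowly (log2 fold change 0.26, SE 0.08, adjusted p = 0.0343, limma), and the call was lost without ND replicate 2 (adjusted p = 0.124), ND replicate 3 (0.0598), control replicate 1 (0.0771) or control replicate 3 (0.102). *Adamtsl2*, a microfibril protein without a protease domain, was at 0.726, 0.803 and 0.947 FPKM with ND, 2.64, 1.56 and 2.29 in control mice, 1.66, 1.20 and 1.32 with HYA and 2.17, 1.85 and 2.42 with LA (2.62-fold, 0.78, SE 0.13, adjusted p = 0.000952). *Adamtsl4* stood at 0.807 ± 0.182 FPKM in ND-fed and 1.10 ± 0.186 FPKM in control mice with overlapping ranges (adjusted p = 0.128).

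Of the 21 members below 1 FPKM but with at least 10 mean fragments, voom called 11 higher and 0 lower in control mice, beside 33.3% of all 14353 genes called in either direction and 17.6% higher. Those 14353 genes include abundant ones and are not a background of low genes. With limma, the filter of 10 mean fragments in place of 1 FPKM moved the calls over all genes from 1795 higher and 2115 lower to 2562 and 2247. *Mmp13*, with 3, 1 and 2 fragments in ND-fed mice, passed only through mice on the high-fat diet. The direction of such members was thus partly set by the filter. Over all 43 members voom called 24 higher and 3 lower. The 11 were *Mmp13*, *Mmp23*, *Mmp27*, *Adam8*, *Adam12*, *Adamts4*, *Adamts9*, *Adamts12*, *Adamts14*, *Adamtsl1* and *Adamtsl3*. *Mmp27* was at 0.592, 0.114 and 0.529 FPKM in ND-fed and 1.07, 1.19 and 0.852 in control mice (adjusted p = 0.0165), with 0.900 ± 0.0227 FPKM with HYA and 0.748 ± 0.236 with LA. *Mmp23*, a membrane protein, was at 0.219, 0.135 and 0.476 FPKM in ND-fed and 1.25, 0.480 and 0.763 in control mice (adjusted p = 0.0191), with 0.452 ± 0.0744 FPKM with HYA and 0.950 ± 0.109 with LA. Both rested on single mice. The call of *Mmp27* was lost without ND replicate 2 (adjusted p = 0.0596), and that of *Mmp23* without ND replicate 1 (0.0658), ND replicate 2 (0.0892) or control replicate 1 (0.0562). *Adam8*, a protease of leukocytes, was at 0.221, 0.136 and 0.108 FPKM in ND-fed and 0.431, 0.525 and 0.406 in control mice (adjusted p = 0.00298). *Adamts14*, the partner of *Adamts2* in procollagen processing, stood at 0.279 ± 0.0840 FPKM in ND-fed and 0.565 ± 0.134 FPKM in control mice (adjusted p = 0.0284), a call lost without ND replicate 1 (0.107), ND replicate 2 (0.0908) or control replicate 1 (0.0968). *Adamts12*, a relative of *Adamts7*, was at 0.0521, 0.0231 and 0.0713 FPKM in ND-fed and 0.285, 0.150 and 0.318 in control mice (adjusted p = 0.00306). *Adamtsl3* had 13 fragments in ND-fed and 80 in control mice, a ratio of 4.98 (95% counting interval 2.75 to 9.75, adjusted p = 0.00797). *Adam12* stood at 0.0659 ± 0.0161 FPKM in ND-fed and 0.126 ± 0.0151 in control mice (adjusted p = 0.0208). *Adamts9* stood at 0.206 ± 0.0563 and 0.417 ± 0.125 FPKM (0.0287) and *Adamtsl1* at 0.0697 ± 0.0196 and 0.141 ± 0.0147 FPKM (0.014). The epithelial matrilysin *Mmp7* was too low for the test and was at 0.0533, 0 and 0.260 FPKM with ND, 0.392, 0.482 and 1.58 in control mice, 0.145, 0.0516 and 0.568 with HYA and 0.351, 0.307 and 0.672 with LA, where 1 control mouse was more than 3 times as high as the others of its group.

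In HYA-treated mice none of the 22 tested members passed the test against control mice (limma, 0 called, beside 2.8% of all genes), and 19 of the 22 had a lower mean log2 value than in control mice. At an unadjusted p under 0.05 there were 10, all lower, or 45.5% of the members and 18.5% of all genes, and the lowest adjusted p was that of *Timp1* (log2 fold change −1.12, SE 0.28, adjusted p = 0.0607). The next were *Adamts10* (−0.32, adjusted p = 0.0683), *Mmp2* (−0.36, 0.0698), *Adam15* (−0.37, 0.0714), *Mmp12* (−0.62, 0.0776), *Timp2* (−0.30, 0.0958) and *Adam11* (−0.46, 0.108). The 3 HYA-treated mice lay below the 3 control mice for 9 members, these 7 and *Adam10* and *Adamts2*, and above them for none, where 8.87% of all genes lay below and 12.7% above. The median log2 fold change of the members was −0.24 and that of all genes 0.02. *Timp1*, *Mmp12* and *Adam15*, which passed the filter through control and LA-treated mice only, are among the members here and in the comparison with LA-treated mice. On the scale of group means, *Timp1* was 3.29-fold, *Mmp12* 2.12-fold, *Adam11* 1.75-fold, *Mmp2* 1.51-fold and *Timp2* 1.28-fold lower with HYA than in control mice.

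These calls lay near the threshold and depended on single mice. Without control replicate 2, which had the lowest value of its group for *Timp1*, *Mmp2*, *Mmp12* and *Timp2*, 7 members were called lower, namely *Timp1* (adjusted p = 0.0277), *Timp2* (0.0385), *Mmp2* (0.0333), *Mmp12* (0.0335), *Adam15* (0.0298), *Adamts10* (0.0324) and *Adamtsl2* (0.0227), where 2.49% of all genes were lower. In the voom fit without the same mouse 12 of 43 members were lower, beside 3.83% of all genes. Without LA replicate 1, 1 member was called, *Adam11* (adjusted p = 0.0363), and without any of the other 10 mice limma called none. voom called *Mmp13* (adjusted p = 0.037, 89 fragments in HYA-treated and 208 in control mice, ratio 0.437, 95% counting interval 0.337 to 0.563) and *Adam15* (adjusted p = 0.0413), beside 3.56% of all genes. The call of *Mmp13* was lost without ND replicate 3 (adjusted p = 0.0502), control replicate 1 (0.143), control replicate 3 (0.0837), HYA replicate 1 (0.0506), HYA replicate 2 (0.152) or HYA replicate 3 (0.115). TPM, which moved the median of all genes from 0.02 to −0.10, gave 4 members lower of 29 tested, beside 3.0% of all genes. *Mmp9* (ratio of group means 1.04), *Mmp19* (1.01) and *Adam9* (1.04) were about level between HYA-treated and control mice, with the signs of *Mmp19* and *Adam9* turning with TPM and that of *Mmp19* with median-ratio size factors.

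**Figure D4:**
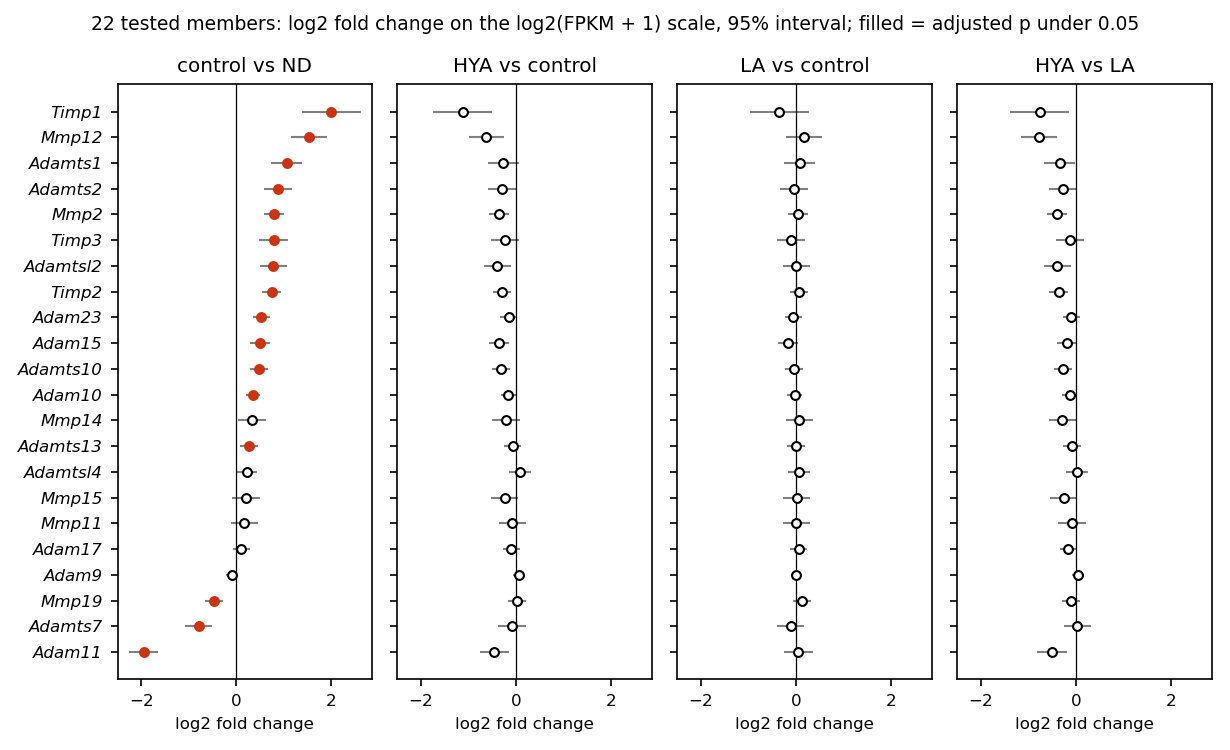
log2 fold change on the log2(FPKM + 1) scale with 95% interval for the 22 tested members (rows, ordered by the first panel) in the comparisons named above the panels (control vs ND, HYA vs control, LA vs control, HYA vs LA); filled points have an adjusted p under 0.05 (limma). Filled points occur in the first panel only (16 of 22), the points of the HYA panels lie mostly left of 0, and those of LA vs control lie around 0.

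LA-treated mice, which received the parent fatty acid at the same share of the diet, showed no called difference from control mice in these genes. None of the 22 members was called (limma, lowest adjusted p = 0.999, background 0.0%), none had an unadjusted p under 0.05, where 2.65% of all genes did, and voom called none of 43. The largest differences on the log2 scale were those of *Timp1* (−0.35, 95% interval −0.97 to 0.26), *Adam15* (−0.18, −0.39 to 0.04) and *Mmp12* (0.16, −0.22 to 0.53), so that the intervals still allow changes of that size. The ranges of the 2 groups were apart for 1 member, *Mmp19*, which was higher in LA-treated mice, beside 3.94% of all genes.

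Bacterial hydration adds water at 1 of the double bonds of LA, so that HYA carries a hydroxyl group and lacks that double bond. Both were given at 1% of the diet for 26 weeks, so that the 2 groups are matched in dose and time. Between HYA-treated and LA-treated mice limma called none of the 22 members (background 0.487%), 8 had an unadjusted p under 0.05, all lower with HYA (17.2% of all genes had one), and the median log2 fold change was −0.22. The lowest adjusted p-values were those of *Mmp12* (log2 fold change −0.78, 95% interval −1.16 to −0.41, adjusted p = 0.0663), *Mmp2* (−0.39, −0.60 to −0.18, 0.0768) and *Timp2* (−0.37, −0.56 to −0.17, 0.0772). The HYA-treated mice lay below all LA-treated mice for 12 members (10.4% of all genes) and above them for 1, *Adam9* (14.8%). voom called *Mmp12* (adjusted p = 0.0414) and *Mmp13* (0.0478), beside 1.56% of all genes. *Mmp12* was also called by limma without control replicate 1 (0.035) or control replicate 2 (0.0382), and *Timp2* without control replicate 2 (0.0483), mice that enter this comparison through the shared estimate of the spread only. Without control replicate 2 voom called 7 of 43 members lower, beside 1.71% of all genes. The call of *Mmp13* was lost in the voom fit without any 1 of the 3 ND-fed, 3 HYA-treated or 3 LA-treated mice, with adjusted p-values up to 0.204 (without HYA replicate 2).

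Set against ND-fed mice, which are shared by these comparisons, HYA-treated mice had 7 members higher and 3 lower (background 16.6%, with 8.72% higher and 7.85% lower) and LA-treated mice 14 higher and 3 lower (background 31.1%, with 14.4% higher and 16.6% lower). *Timp2* was 1.46-fold higher than in ND-fed mice with HYA (adjusted p = 0.00642) and 1.97-fold with LA (8.67e-05). *Adamts1* was 2.04-fold (0.00484) and 2.70-fold (0.000271) higher, *Mmp2* 1.85-fold (0.0103) and 2.88-fold (0.000114), and *Adam11* 9.59-fold (2.69e-06) and 5.08-fold (6.74e-06) lower. *Timp1* had 57 fragments in HYA-treated against 2 in ND-fed mice and did not pass the test (adjusted p = 0.0563), whereas in LA-treated mice it did (135 fragments, adjusted p = 0.0014). Between HYA-treated and LA-treated mice *Timp1* was not called (limma, log2 fold change −0.77, adjusted p = 0.191), nor was it under any of 20 alternatives.

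Genes that activate, restrain or accompany these proteases were followed as a list of 42, of which 25 were tested. In control mice 10 were higher and 6 lower than in ND-fed mice (limma, adjusted p under 0.05), where 16.2% of all genes were higher and 19.1% lower. The genes of plasminogen activation moved apart. *Plau*, the activator urokinase, rose from 1.01 ± 0.262 to 2.16 ± 0.499 FPKM (0.65 on the log2 scale, adjusted p = 0.00311). Plasminogen itself (*Plg*) fell from 636 ± 56.8 to 344 ± 33.9 FPKM (−0.88, 3.9e-05), and the plasmin inhibitor *Serpinf2* from 333 ± 44.8 to 173 ± 30.1 FPKM (−0.95, 0.000368). *Rhbdf1*, which escorts Adam17 to the cell surface, rose from 1.63 ± 0.146 to 3.17 ± 0.543 FPKM (0.66, 0.000384). *Pcolce*, an enhancer of procollagen C-proteinase, rose from 1.63 ± 0.246 to 3.73 ± 0.270 FPKM (0.85, 0.000409). *Tspan33*, a tetraspanin partner of Adam10, fell from 2.78 ± 0.0507 to 1.05 ± 0.217 FPKM (−0.89, 1.5e-05). In HYA-treated against control mice 2 of the 25 were higher, *Lrp1*, an endocytic receptor that clears proteases and their inhibitors (56.1 ± 3.58 to 69.3 ± 2.14 FPKM, adjusted p = 0.0355), and *Plg* (446 ± 13.8 FPKM with HYA, 0.0487), and 1 was lower, the lysosomal protease gene *Ctsd* (130 ± 5.15 to 108 ± 3.77 FPKM, 0.0333). These 3 stand beside 2.8% of all genes, and 13 of the 25 had an unadjusted p under 0.05, beside 18.5% of all genes. voom called 5 of 35, these 3, *Rhbdf1* and *Serpine2*, beside 3.56% of all genes. limma called none in LA-treated against control mice, where none had an unadjusted p under 0.05 and voom called none of the 35 it tested. Between HYA-treated and LA-treated mice limma also called none, 12 had an unadjusted p under 0.05 (17.2% of all genes did), and voom called *Rhbdf1* alone.

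Markers of myofibroblasts and of lipid-associated and recruited macrophages moved in the direction of most members, and those of hepatocytes moved the other way. The part of these cell types in the results was not tested. The 6 myofibroblast markers (*Acta2*, *Tagln*, *Col1a1*, *Col1a2*, *Col3a1*, *Lum*) all rose in control against ND-fed mice, and 4 of them fell in HYA-treated against control mice, with sums of 8.96 to 13.1 FPKM with ND, 41.9 to 60.1 in control mice, 25.3 to 30.0 with HYA and 41.9 to 58.0 with LA. Of the 7 markers of lipid-associated and recruited macrophages 5 were tested, of which all 5 rose and, with HYA, 4 fell, with sums of 34.6 to 41.1, 108 to 206, 62.3 to 75.4 and 111 to 166 FPKM in the same order of groups. The resident macrophage markers did not move as 1 group (1 of 5 higher and 2 lower in control against ND, none called with HYA by limma or voom, and 1 at an unadjusted p under 0.05 by limma). In control against ND-fed mice 1 of 6 quiescent stellate cell markers, 3 of 5 sinusoidal endothelial markers and 1 of 2 tested bile duct markers were higher, and the single tested acinar marker was lower. Of all genes, limma called 16.2% higher and 19.1% lower in that comparison. In HYA-treated against control mice it called 2.8% of all genes, and 18.5% had an unadjusted p under 0.05. Of the 6 hepatocyte markers 4 fell in control against ND-fed mice, and 1 rose with HYA against control mice, where all 6 had positive log2 fold changes and 5 an unadjusted p under 0.05. Their sums were 41988 to 43566 FPKM with ND, 27699 to 32078 in control mice, 36081 to 38004 with HYA and 30497 to 31278 with LA. In HYA-treated against control mice 1 bile duct marker was lower. Of the neutrophil markers 1 of 6 was tested with limma and was not called in these comparisons (voom tested 2 and called 1, *S100a8*, between control and ND-fed mice). None of the 6 T and B cell markers reached the filter, with none called by voom (sums of 1.19 to 2.83 FPKM). In LA-treated against control mice no marker of any list was called by limma or voom, and none had an unadjusted p under 0.05 with limma.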

How the data were processed

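The authors extracted RNA from whole liver, sequenced paired ends on the HiSeq platform and deposited a single FPKM table, with a column for each mouse and with gene lengths and coordinates. The submitters' processing notes name fastp, HISAT2 2.0.5, featureCounts 1.5.0-p3 and GRCm38, whereas the strand setting, the annotation release, the library scaling and the treatment of reads shared by genes are not given in the sources used here. Values of members that overlap another gene are therefore uncertain. The methods give TPM, but the columns sum to 342146 to 429286, so that the values were treated as FPKM, on the authors' scaling. Coordinates of 83 of the 84 members and of 98.33% of shared identifiers equal those of GENCODE M21.

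The product of each value and its gene's length was in all cases (100%, tolerance 0.01) a whole number of steps, which were taken as recovered fragments. Depth was 17169064 to 25220880 fragments per mouse, and 3 fragments were taken as the floor. Groups came from the labels. limma 3.58.1 (R 4.3.3, empirical Bayes with trend, two-sided, Benjamini-Hochberg) was fitted to log2(FPKM + 1) of all 12 mice and 11083 genes whose mean reached 1 FPKM, in 6 comparisons. voom on fragments of 14353 genes with at least 10 mean fragments was the fit for members under that filter. Nothing states that mice are independent beyond being separate samples. The p-values of the main fit set a group difference against the spread between mice within groups, estimated over all 4 groups. limma was tested on simulated data. Pooled ratios have exact conditional 95% intervals. Alternatives were the pseudocount, filters, voom, TPM, median-ratio size factors, 2 groups only, a replicate block and leaving out each mouse. Leaving out mice in the voom fit and ranges that do not overlap were added after seeing the data.

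The members and all lists were chosen with earlier results of these data known. Named with values were all *Timp* genes, *Mmp2*, *Mmp9*, *Mmp12*, *Mmp13*, *Mmp14*, *Adam10*, *Adam17* and *Adamts13*, all members called between control and ND, HYA and control, LA and control or HYA and LA, and the 5 highest members under the filter (*Mmp13*, *Mmp27*, *Mmp23*, *Mmp7*, *Adamts4*). The levels of *Adamts4* and of some listed genes are not reported here. The other genes given with values, such as *Mmp8*, *Mmp11*, *Mmp15*, *Adam8*, *Adam9*, *Adamts14* and *Adamtsl4*, were chosen after their values were seen. Roles are textbook knowledge, since no protein sequences were used here. Promoter windows are from RefSeq (GRCm38.p6).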

Additional observations from a re-analysis of the deposited data

How the results depend on the processing

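Among the 55 results for single members that were repeated under the alternatives, 943 of 1017 repeats kept direction and side of the threshold, 44 lost and 25 gained a call, and 5 reversed. Of the 29 called results, 19 kept their call in every repeat. In control against ND-fed mice, 16 members were called, 25 without a filter, 25 with a filter of 10 mean fragments, 27 with voom, 26 with TPM, 4 with an added fold-change threshold, and 15 to 17 when 1 mouse was left out of the limma fit, as in the ranges that follow. In HYA-treated against control mice, 0 were called, 1 with the filter of 10 mean fragments, 2 with voom, 4 with TPM and 0 to 7 without 1 mouse. In HYA-treated against LA-treated mice, the numbers were 0, 2 with voom, 3 with TPM and 0 to 2 without 1 mouse. Calls over all genes moved too. In HYA-treated against control mice they were 310, 105 without a filter, 444 with the filter of 10 mean fragments, 511 with voom and 496 with TPM. A fit of the 2 groups alone gave 0, and fits without 1 mouse gave 0 to 653. Against LA-treated mice they were 54, 0 without a filter, 224 with voom, 162 with TPM, 94 with the 2 groups alone and 0 to 259 without 1 mouse. In LA-treated against control mice 0 members were called under all of these settings. In HYA-treated against ND-fed mice 10 were called, 1 with the fold-change threshold and 8 to 12 without 1 mouse. In LA-treated against ND-fed mice 17 were called, 27 with voom, 4 with the fold-change threshold and 13 to 17 without 1 mouse. In voom fits without 1 mouse the numbers were 21 to 28, 0 to 12, 0 to 7, 0, 9 to 14 and 20 to 28 in the same order, with the 12 and the 7 without control replicate 2. The larger numbers without a filter, with the filter on fragments, voom and TPM go with more members tested (65, 43, 43 and 29, against 22), and voom and TPM also change the scale.

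The reversals were those of *Mmp9* in HYA-treated against control mice, with a log2 fold change of −0.0026 in the voom fit, 0.00748 without a filter, 0.00748 with the filter of 10 mean fragments, and −0.286 to 0.165 in voom fits without 1 mouse, above 0 without control replicate 1, HYA replicate 2 or HYA replicate 3. None of these passed the test. *Adamts13* between control and ND-fed mice lost its call without a filter (adjusted p = 0.0723) and in a fit of the 2 groups alone (0.0769). *Adam12*, *Adamts9* and *Adamtsl1*, called by voom in that comparison, lost the call without 1 of 3, 4 and 1 mice, respectively, with adjusted p-values up to 0.0798, 0.112 and 0.0638. *Adam12* (0.0775) and *Adamtsl1* (0.0587) also lost it with limma and the filter of 10 mean fragments, and *Adamts9* (0.0724) with limma and no filter. The cause was not tested. Deviations from the group mean correlated at −0.396 to 0.294 over 18 pairs of same-numbered mice, and at −0.375 to 0.393 over 36 pairs of other numbers. With 3 mice per group these overlapping ranges cannot decide whether the numbers pair the mice. With the replicate block 17 members were called in control against ND, 1 in HYA against control (*Timp1*, adjusted p = 0.0332) and 2 in HYA against LA (*Mmp12*, 0.0384, and *Timp2*, 0.0459). Over all genes the block gave 3792, 449 and 258 calls in these comparisons, where the main fit gave 3910, 310 and 54. Depth limits the 22 members with fewer than 10 mean fragments. They entered the fit without a filter only, apart from *Mmp7*, which also entered the TPM fit.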
